A study of Mus musculus with 8 samples.

Results

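Large-artery endothelial cells, the lining cells of arteries with an elastic wall, were 1586 of the 28236 endothelial cells and of the 50254 cells kept in 7 single-cell libraries of mouse cortex. Barcodes entered with 500 or more genes detected, and with mitochondrial transcripts under 15% of the unique molecular identifiers (UMIs, each a counted RNA molecule). A barcode was taken as endothelial with 20 or more UMIs per 10000 of Cldn5, Flt1 and Pecam1 summed, under 20 of the mural genes Acta2, Tagln, Vtn and Rgs5, and under 20 of the myeloid genes C1qa, C1qb and Ctss. The large-artery cells were then selected on their own RNA: at least 3 of the 6 genes Mgp, Fbln5, Fbln2, Cytl1, Eln and Pi16 had to have a UMI. The levels of these 16 genes chose the cells, so they are given as a description, with no test. The same holds for every gene set against the other endothelial cells, since genes that accompany the 6 move with the choice.

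As background, large arteries carry pulsatile pressure and rest on an elastic lamina, a sheet of elastin laid on microfibrils. Elastin (Eln) is the core protein of that fibre, and the fibulins Fbln5 and Fbln2 help to assemble it. Mgp, matrix Gla protein, keeps arterial walls from calcifying. Beneath every endothelial cell lies a basement membrane built on laminins, trimers of an alpha, a beta and a gamma chain, and the endothelial alpha chains are encoded by Lama4 and Lama5.

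The study asked how these laminins bear on the zones of brain vessels. Cortex was taken from perfused mice of 8 weeks of age in 4 groups: Lama4-/- mice (Lama4 KO), WT mice kept as their control, Tek-Cre:Lama5-/- mice (Lama5 KO), and a separate WT control for those. Tek-Cre acts in the endothelial lineage and in some blood cells, so mural and other brain cells of the Lama5 KO keep their Lama5. Each group was 1 pool of 3 brains, dissociated with papain, DNase and Liberase, cleared of myelin and run on the Chromium 3-prime kit. The spread between libraries of a group is thus the spread within 1 pool, and no value here includes the spread between mice.

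Each group had 2 samples, but both Lama4 KO samples held the same matrix and were counted as 1 library. Library totals ran from 35479306 to 48314458 UMIs. Any pair of the libraries shared 5 to 24 barcodes among the cells kept, and 1 barcode among the large-artery cells. In these cells Lama4 had 0 of 2739990 UMIs in the Lama4 KO library, against levels of 42.1 and 47.0 CPM (UMIs per 1000000 of the summed UMIs) in its WT. Taking 3 counts as the limit that a count of 0 allows (1.09 CPM), the level was at least 40.7-fold lower. Lama5 stood at 75.1 and 69.0 CPM in the WT of the Lama5 experiment and at 45.6 and 40.6 CPM in the Lama5 KO, so its RNA was lower and not absent. Counts from the 3-prime end need not read the deleted exons, so for Lama5 this is no full check of the label. The libraries also held RNA of other cells at uneven levels: in the large-artery sums, 4 hemoglobin genes together took 20.03 to 4437 CPM, and the choroid plexus gene Ttr 0 to 547 CPM. The oligodendrocyte markers Mog, Mag, Cldn11, Mbp and Ermn summed to 10.2 to 645 CPM, with 96.0 and 645 CPM in the WT and 76.8 and 208 CPM in the KO of the Lama5 experiment, and their part in the results was not tested.

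In the Lama4 experiment, the WT libraries gave 196 and 200 large-artery cells and the KO library 202. In the Lama5 experiment, the WT libraries gave 287 and 257 and the KO libraries 200 and 244. They held 1666881 to 3274845 UMIs per library. Their median depth was 6756.5 to 14777 UMIs per cell, 2.40 to 2.72 times that of the other endothelial cells of the same library, and a rule that asks for detected genes favours deep cells. Of the members, 797 had 3 of the 6 genes, 435 had 4, and 354 had 5 or 6. Just outside the rule, 1602 endothelial cells had 2.

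Their identity was checked against marker lists. The small-artery, venous, capillary and fibroblast lists hold no gene of the rule. The smooth muscle list holds Acta2 and Tagln, and the markers of another class include mural and myeloid genes. The rule limits these genes, so their low levels are partly set by the choice of cells. At least 3 of the 6 small-artery markers Gkn3, Bmx, Sema3g, Vegfc, Efnb2 and Hey1 were detected in 1448 members (91.3%), against 10.5% to 15.7% of the other endothelial cells by library. At least 3 of 6 venous markers were detected in 123 members (7.76%), by library in 4.92% to 12.8% of members against 12.5% to 27.3% of the others. At least 3 of 6 capillary markers were detected in 50.5% to 59.2% of members by library, against 81.5% to 92.2% of the others. Markers of another class, 2 or more per cell, were found in 652 members (41.1%). Cells without them were 78 of 200 members and 1164 of 2075 others in the second WT library of the Lama4 experiment. In the second Lama5 KO library they were 194 of 244 members and 3931 of 4891 others. Such markers, or over 2 times the median UMIs of endothelial cells, were found in 1200 members (75.7%). Cells with neither were 38 of 200 members and 1055 of 2075 others in that WT library. The endothelial cadherin gene Cdh5 stood at 639 to 744 CPM. The 6 fibroblast markers, which matter because fibroblasts also make Mgp and elastic fibre genes, summed to 2.40 to 31.4 CPM, against 2.09 to 24.6 CPM in the other endothelial cells. Dcn was at 0 in most libraries and reached 7.04 CPM in the highest, and no member held 20 or more fibroblast UMIs per 10000. Smooth muscle markers summed to 13.2 to 75.2 CPM, against 18.5 to 83.6 CPM. Of these 3 lists the arterial one was thus detected in the most members. The width of the vessel was not measured, and the word large rests on the 6 genes alone.

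Of the rule's genes, Mgp lies at chr6:136872435-136875823 (minus strand, GRCm38), Fbln5 at chr12:101746565-101819055 (minus), Fbln2 at chr6:91212455-91272540 (plus), Cytl1 at chr5:37735519-37739820 (plus), Eln at chr5:134702593-134747323 (minus) and Pi16 at chr17:29317680-29330593 (plus), all coding genes. Across the 7 libraries Mgp stood at 3953 (lowest), 5746 (median) and 7917 CPM (highest) in large-artery cells and at 122 to 225 CPM in the other endothelial cells. Fbln5 had the highest ratio of the 6 (5.85 ± 0.32 on the log2 scale, SD, n = 7), at 245, 375 and 465 CPM against 0.827 to 1.86 CPM. Eln stood at 217, 244 and 393 CPM against 11.2 to 24.6 CPM, and Fbln2 at 253, 308 and 330 CPM against 19.95 to 30.6 CPM. Cytl1, a small secreted cytokine-like protein, stood at 56.04, 87.0 and 276 CPM against 0 to 0.737 CPM. Pi16, a secreted peptidase inhibitor, stood at 47.8, 63.9 and 110 CPM against 0.207 to 1.43 CPM. For none of the 6 did the ranges overlap, and the rule fixes that direction. Cytl1 also split by experiment: 207, 214 and 276 CPM in the 3 libraries of the Lama4 experiment and 56.04 to 87.0 CPM in the 4 of the Lama5 experiment. Members with 5 or 6 of the genes were 31.5% to 34.2% in the Lama4 experiment and 13.9% to 18.4% in the Lama5 experiment. The part of this share in the split was not tested.

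The promoters of the rule's genes are shown because these genes were read together in the same cells. RefSeq (GRCm38.p6) gave a promoter for 4 of the 6, with 2 start sites for Fbln5, and none for Mgp or Eln. Each line is the 250 bases upstream of a start site, 5′ to 3′ on the gene's strand. Capitals mark CACCC, the box bound by Krüppel-like factors, and TGGGAA, the core bound by the Notch partner RBPJ, on either strand, where they are read as GGGTG and TTCCCA. The windows are chr12:101819120-101819369 and chr12:101818485-101818734 (both minus) for Fbln5, chr6:91212514-91212763 (plus) for Fbln2, chr5:37735269-37735518 (plus) for Cytl1 and chr17:29318632-29318881 (plus) for Pi16.
Fbln5, first start site: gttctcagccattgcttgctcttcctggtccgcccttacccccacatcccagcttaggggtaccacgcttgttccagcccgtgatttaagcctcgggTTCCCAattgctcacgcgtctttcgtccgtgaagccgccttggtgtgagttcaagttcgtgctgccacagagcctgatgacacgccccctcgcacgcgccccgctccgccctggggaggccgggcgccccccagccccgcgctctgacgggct
Fbln5, second start site: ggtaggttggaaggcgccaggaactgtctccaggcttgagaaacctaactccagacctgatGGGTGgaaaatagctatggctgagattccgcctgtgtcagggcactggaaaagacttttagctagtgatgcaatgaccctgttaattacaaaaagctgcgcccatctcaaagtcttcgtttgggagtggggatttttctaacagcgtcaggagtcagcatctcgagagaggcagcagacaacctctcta
Fbln2: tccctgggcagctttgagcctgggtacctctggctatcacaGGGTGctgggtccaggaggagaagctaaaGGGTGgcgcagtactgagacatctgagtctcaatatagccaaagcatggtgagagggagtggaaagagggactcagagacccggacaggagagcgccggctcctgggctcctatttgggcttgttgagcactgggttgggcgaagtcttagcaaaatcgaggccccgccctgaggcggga
Cytl1: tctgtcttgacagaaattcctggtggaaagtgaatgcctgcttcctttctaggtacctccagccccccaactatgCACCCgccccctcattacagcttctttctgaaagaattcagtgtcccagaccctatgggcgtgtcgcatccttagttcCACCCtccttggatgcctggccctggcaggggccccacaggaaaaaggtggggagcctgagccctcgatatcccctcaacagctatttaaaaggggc
Pi16: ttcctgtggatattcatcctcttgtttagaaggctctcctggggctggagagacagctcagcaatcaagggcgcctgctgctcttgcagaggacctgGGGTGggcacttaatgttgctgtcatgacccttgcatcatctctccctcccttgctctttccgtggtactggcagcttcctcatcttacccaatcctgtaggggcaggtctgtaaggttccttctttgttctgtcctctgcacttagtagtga

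The CACCC box lay in a promoter of all 4 genes, and in 52.0% of all 32851 promoters of the same length. TGGGAA lay in that of 1 gene, Fbln5, against 21.6% of all promoters. CCGGAA, a core of ETS factors that was also searched on both strands, lay in none of the 4, against 12% of all. Of the 20 leading genes named next, 16 had a promoter in RefSeq (not Clu, Cdh13, Lrrc32 or Stmn2). Of these 16, 9 held CACCC, 5 held TGGGAA and none held CCGGAA. Of the 10 lowest genes named below, 8 had a promoter (not Slc7a5 or Ndnf), and 7 of these held CACCC, 4 TGGGAA and 1 CCGGAA. These matches describe the letters of the windows and are not binding sites.

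Beyond the rule's genes, 186 of 6623 genes at 20 CPM or more (2.81%) stood at 2-fold or more over the other endothelial cells in all 7 libraries, and 99 (1.49%) at 2-fold or more below them. Ratios were taken within each library after adding 5 CPM. Gkn3, a gastrokine-family gene used as an arterial marker of brain endothelium, ranked first by its lowest ratio in any library, at 1458, 2014 and 2910 CPM (lowest, median, highest) against 81.0 to 150 CPM. Its log2 ratio was 4.08 ± 0.34 (SD, n = 7 libraries). Its ranges were far apart, and every library showed the order.

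The 20 leading genes included several of the matrix and of matrix binding. Col18a1, a basement membrane collagen, stood at 174, 186 and 228 CPM against 8.5 to 13.7 CPM. Npnt, nephronectin, an integrin ligand of basement membranes, stood at 133, 167 and 197 CPM against 5.43 to 12.9 CPM. Bgn, the proteoglycan biglycan, stood at 69.4, 103 and 171 CPM against 3.52 to 7.04 CPM. Timp2, an inhibitor of matrix metalloproteases, stood at 135, 142 and 161 CPM against 9.98 to 16.6 CPM. Each of these was higher in large-artery cells in 7 of 7 libraries with no overlap. Of the 24 genes of a list for elastic fibres and the molecules that link to them, 4 outside the rule reached 20 CPM, and 3 of those (Fbn1, Ltbp4 and Bgn) were 2-fold or more higher in all 7 libraries. Ltbp4, which tethers latent TGF-beta to microfibrils, stood at 1429, 1552 and 1660 CPM against 431 to 570 CPM.

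Signalling and vessel tone genes followed. Nos1, the nitric oxide synthase best known from neurons, stood at 91.4, 97.8 and 131 CPM against 2.13 to 4.65 CPM, a log2 ratio of 3.81 ± 0.34 (SD, n = 7). The endothelial synthase Nos3 stood at 226, 237 and 288 CPM against 139 to 205 CPM, a log2 ratio of 0.58 ± 0.13. Markers of neurons (Snap25, Syt1, Stmn3, Tubb3, Meg3 and Snhg11) summed to 4.28 to 40.8 CPM in large-artery cells and to 6.10 to 33.8 CPM in the others. Gja4, an arterial gap junction protein, stood at 165, 176 and 331 CPM against 8.61 to 15.4 CPM. Ace, angiotensin-converting enzyme, stood at 91.2, 116 and 124 CPM against 9.48 to 15.9 CPM. Edn1, the constrictor peptide endothelin, was nearer, at 555, 651 and 819 CPM against 183 to 417 CPM. Of 16 vessel tone genes measured, 5 (Ptgis, Ace, Trpv4, Gja4 and Gja5) passed the 2-fold criterion upward in all 7 libraries and none downward.

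The other leaders were Igfbp4, Emp1, Egfl8, Clu, Emp3, Cdh13, Atp2b4, Lrrc32, Bmx, Stmn2, S100a6 and Vegfc, with mean log2 ratios from 2.71 (Vegfc) to 4.0 (Igfbp4). Clu, the secreted chaperone clusterin, stood at 407, 523 and 830 CPM against 26.4 to 77.6 CPM. Emp1, a membrane protein, varied more by library, from 132 to 358 CPM, yet stayed above its range of 5.96 to 30.3 CPM in the other cells. Of the arterial identity list, 18 of 25 measured genes were 2-fold or more higher in all 7 libraries and none lower. Of 11 measured Notch genes, 4 were: the ligands Dll4, Jag1 and Jag2 and the target Hey1. Jag1 stood at 163, 187 and 222 CPM against 51.9 to 62.9 CPM. Of 19 measured TGF-beta and BMP genes, 2 were, Ltbp4 and Smad6, an inhibitor of BMP signals, at 142, 155 and 176 CPM against 33.3 to 37.2 CPM. Of 15 measured flow-response genes, 3 were, Gja5, Adamts1 and Timp3. Timp3, a matrix-bound protease inhibitor, stood at 2435, 3181 and 3439 CPM against 758 to 1119 CPM.

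**Figure D1:**
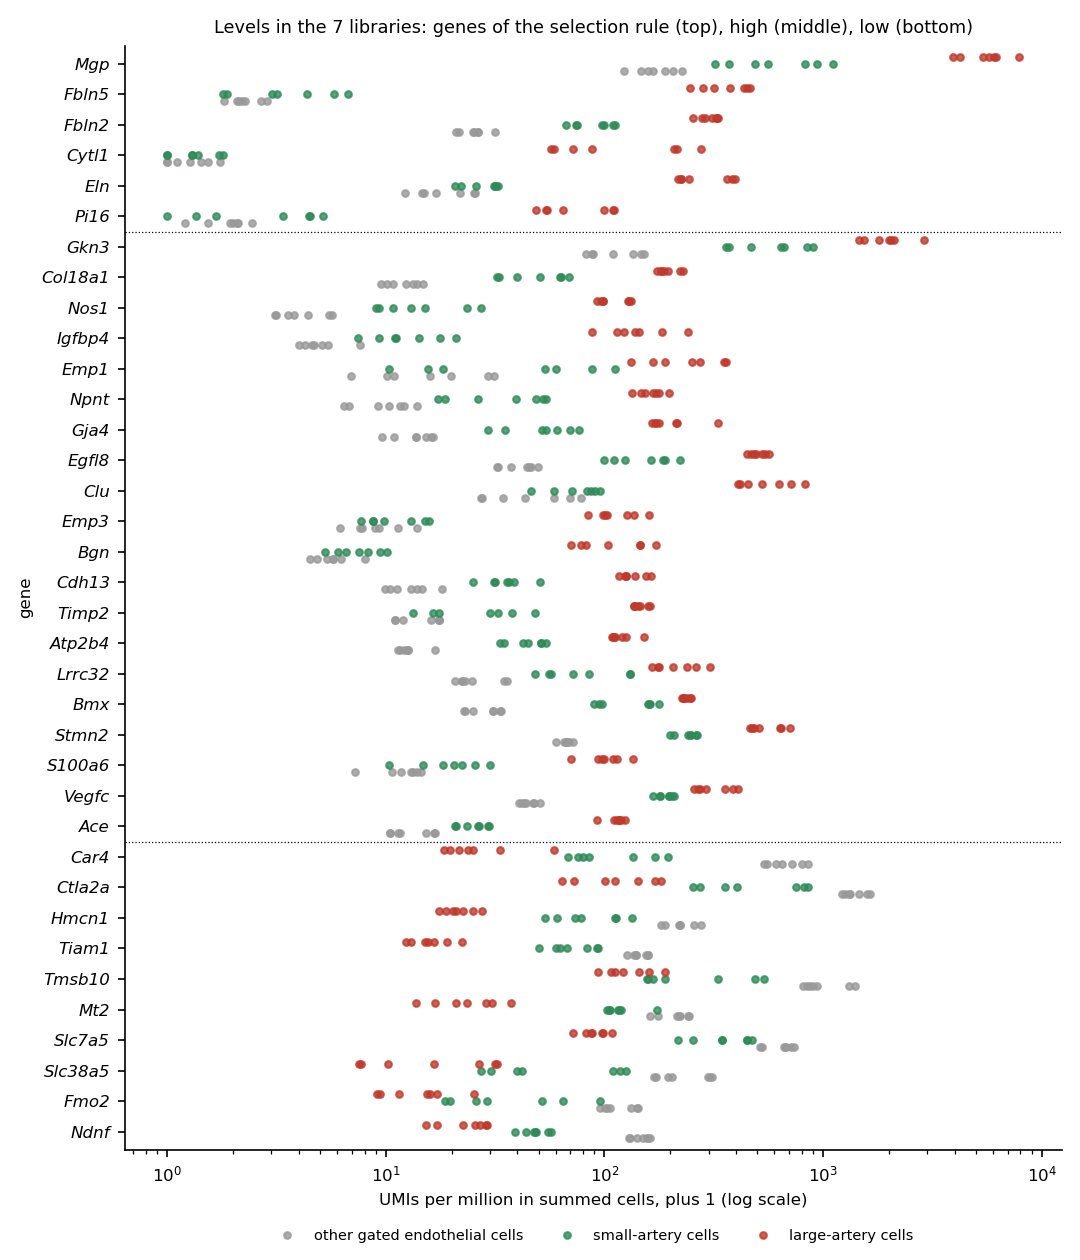
Level of each gene (CPM plus 1, log scale) in the summed large-artery, small-artery and other endothelial cells of a library, 1 point per library. The upper block holds the 6 genes of the selection rule, the middle block the 20 leading genes and the lower block the 10 lowest; Mgp reaches 7917 CPM in large-artery cells, and the red points of the middle block lie to the right of both other sets.

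Capillary genes were low. Of 14 capillary genes measured, 10 were 2-fold or more lower in all 7 libraries and none higher. Car4, a carbonic anhydrase of capillaries, stood at 17.6, 22.9 and 57.6 CPM against 535 to 851 CPM, the lowest ratio of the named genes at -4.45 ± 0.61 (SD, n = 7). Slc16a1, a lactate carrier of the barrier, stood at 48.9, 89.2 and 101 CPM against 395 to 532 CPM. Slc7a5, an amino acid carrier, stood at 70.9, 86.4 and 108 CPM against 513 to 734 CPM. The remaining low leaders were Ctla2a, Hmcn1, Tiam1, Tmsb10, Mt2, Slc38a5, Fmo2 and Ndnf. The microglial gene C1qa stood at 5.6 to 30.3 CPM in the same sums. The rule limits it, so its level cannot gauge the background of droplet data.

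Venous genes divided. Of 12 measured, 4 (Slc38a5, Nr2f2, Il1r1 and Tmsb10) were 2-fold or more lower in all 7 libraries. Nr2f2, the venous transcription factor, stood at 4.38, 13.2 and 22.8 CPM against 71.6 to 89.9 CPM. Vcam1, a leukocyte adhesion molecule, was 2-fold or more higher in all 7, at 389, 451 and 495 CPM against 115 to 208 CPM. Vwf, von Willebrand factor, stood at 249, 305 and 428 CPM against 129 to 378 CPM, and its ranges overlapped.

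Of 28 genes of barrier junctions and transport, none was 2-fold or more higher and 4 were lower: Slco2b1, Slc7a1, Lrp8 and Apcdd1. Slc7a1, a cationic amino acid carrier, stood at 122, 147 and 173 CPM against 448 to 501 CPM. The median log2 ratio of this list was -0.30, against 0.003 over all genes described. Of 23 core endothelial genes, 1 passed the criterion: Emcn, a surface sialoprotein, at 176, 207 and 323 CPM against 434 to 762 CPM. No gene of the interferon list or of the list of dissociation and immediate early genes (18 each) passed in either direction.

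The laminin chains were not alike in these cells. Lama3, an alpha chain usually tied to epithelial basement membranes, stood at 44.2, 49.2 and 77.4 CPM against 7.68 to 9.85 CPM in the other endothelial cells. It was the 1 chain of 5 measured that was 2-fold or more higher in all 7 libraries. Lama5 was also higher within each library, by 0.87 ± 0.12 on the log2 scale (SD, n = 7). Its levels were 112 and 98.6 CPM in the WT of the Lama4 experiment, against 53.04 and 55.9 CPM in the other endothelial cells of the same libraries. Lama4 differed little in those libraries, at 42.1 and 47.0 against 46.1 and 43.7 CPM. In each library of the Lama5 experiment Lama4 was higher in large-artery cells. It stood at 35.1 and 40.0 against 28.9 and 29.9 CPM in the WT, and at 60.0 and 54.7 against 48.7 and 44.0 CPM in the KO. The partner chains Lamb2 and Lamc1 had mean log2 ratios of 0.89 and 0.62. Levels were not compared between chains, since CPM do not allow for how each transcript is captured. Of 13 other basement membrane genes measured, Col18a1 and Ntn4 were 2-fold or more higher in all libraries and Sparcl1 lower. Of 9 receptors, Mcam alone passed, and Itga6, the laminin-binding integrin chain, was lower at 299, 333 and 356 CPM against 539 to 615 CPM.

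The closest neighbours were the 3302 small-artery cells: endothelial cells outside the rule with at least 3 of their 6 markers. Of the 6623 genes described, 52 were 2-fold or more higher in large-artery than in small-artery cells in all 7 libraries. Bgn differed most among the leaders, at 69.4 to 171 against 4.26 to 9.17 CPM, a log2 ratio of 3.29 ± 0.63 (SD, n = 7). Igfbp4 followed at 3.13 ± 0.54, Emp3 at 2.97 ± 0.36, Clu at 2.83 ± 0.63 and Nos1 at 2.63 ± 0.67. By contrast Hey1 stood at 175, 214 and 253 CPM in large-artery cells and at 188, 212 and 226 CPM in small-artery cells. Efnb2, the arterial ephrin, stood at 119 to 256 and 116 to 242 CPM. Both genes chose the small-artery cells, so their likeness is partly set by that choice. Mt2 was lower, at 12.8 to 36.5 against 102 to 173 CPM, as was the lipid carrier Mfsd2a at 89.9 to 142 against 205 to 403 CPM. No range of Bgn, Igfbp4, Emp3, Clu, Nos1, Mt2 or Mfsd2a overlapped.

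The members were not uniform. Sorted by how many of the 6 genes they had, their other genes differed in steps. This is a description, as the sort uses the same cells, and depth was also higher with more genes (median UMIs per cell of 5718 to 12403.5 by library at 3 genes and 7419 to 18053 at 5 or 6). Bgn stood at 19.7 ± 5.48 CPM (SD, n = 7 libraries) with 3 genes, 81.8 ± 49.4 with 4 and 298 ± 57.3 with 5 or 6. Emp3 stood at 39.3 ± 9.36, 93.1 ± 21.7 and 259 ± 42.04 CPM. Clu stood at 218 ± 20.2, 555 ± 98.8 and 1115 ± 291 CPM, and Nos1 at 47.99 ± 12.1, 116 ± 11.1 and 200 ± 29.2 CPM. For each of these 4 genes the value at 5 or 6 exceeded that at 3 in 7 of 7 libraries.

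Hey1, by contrast, was near its full level from 3 genes on. It stood at 123 CPM with 2 genes, 214 with 3, 224 with 4 and 205 with 5 or 6, while Vegfc stood at 297 with 3, 378 with 4 and 298 with 5 or 6. Gkn3 stood at 1423, 2530 and 2379 CPM. The capillary markers Mfsd2a and Spock2 stood lower the more of the 6 a member had: Mfsd2a stood at 182, 96.7 and 35.5 CPM, and Spock2, a matrix proteoglycan, at 1377, 797 and 423 CPM. Lama5 stood at 70.6, 81.3 and 99.0 CPM, and its value at 5 or 6 genes exceeded that at 3 in 7 of 7 libraries.

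At the edge of the rule the venous genes broke the order. Cells with 2 of the 6 genes held Slc38a5 at 234 CPM, Tmsb10 at 743 CPM and Vwf at 525 CPM. Cells with 3 held 33.8, 146 and 256 CPM. Slc38a5 and Tmsb10 were lower at 3 than at 2 genes in 7 of 7 libraries, and so was Vwf. Within the rule Vwf then stood at 332 CPM with 4 and 514 CPM with 5 or 6 genes, and Vcam1 at 281, 492 and 637 CPM.

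**Figure D2:**
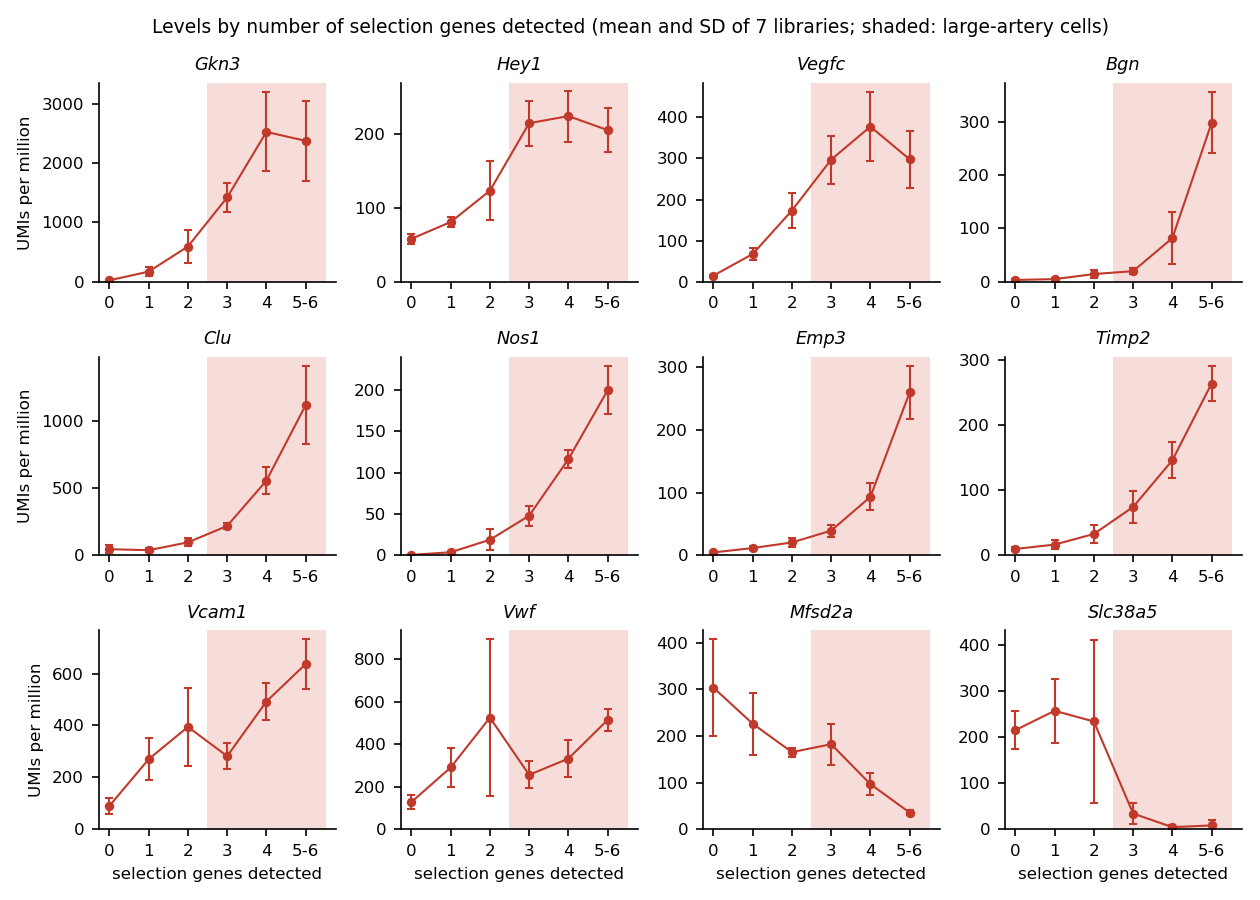
Level of 12 genes (CPM, vertical axis) against the number of the 6 selection genes a cell had (horizontal axis), as mean and SD of 7 libraries, with the large-artery cells shaded. Bgn goes from 19.7 to 298 CPM within the shaded range while Hey1 stays between 205 and 224 CPM, and Slc38a5 goes from 234 to 33.8 CPM at its edge.

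The first question across genotypes is whether large-artery cells were as frequent. They made up 5.29% (exact binomial 95% interval 4.71% to 5.92%) and 4.72% (4.17% to 5.32%) of endothelial cells in the Lama5 experiment's WT libraries, and 3.97% (3.45% to 4.55%) and 4.75% (4.19% to 5.37%) in the Lama5 KO. Intervals here and later cover counting error only. The KO mean was lower by 0.643 percentage points, 4.36% against 5.01%, and the groups overlapped (exact permutation test over libraries, two-sided, p = 0.667, where 0.333 is the smallest p possible with 2 against 2). With every cell thinned to 2000 UMIs, which left out 1161 and 1324 shallower WT cells and 1717 and 2064 shallower KO cells, the KO mean was higher by 0.154 points. In the Lama4 experiment the share was 8.07% and 8.79% in the WT and 8.10% (7.06% to 9.24%) in the KO library, which lay between the WT values. Both WT groups thus differed from each other by more than either KO from its own WT, at depths that also differed: the median endothelial cell held 6099.5 and 5786 UMIs in the WT of the Lama4 experiment and 3465 and 3329 UMIs in that of the Lama5 experiment.

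**Figure D3:**
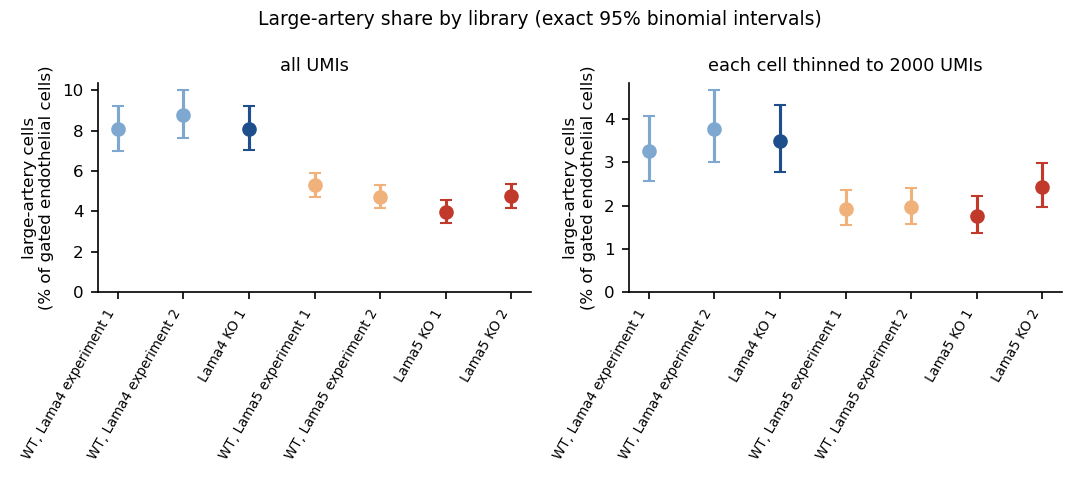
Large-artery cells as a percentage of gated endothelial cells in each of the 7 libraries (points) with exact 95% binomial intervals (bars), with all UMIs on the left and with each cell thinned to 2000 UMIs on the right. The Lama4 KO library at 8.10% lies between its 2 WT libraries, and of the Lama5 KO libraries the one at 3.97% lies below both WT intervals (4.71% to 5.92% and 4.17% to 5.32%) and the one at 4.75% within both.

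Loss of Lama5 in the endothelial lineage went with modest shifts in large-artery cells. The rule's genes aside, of 9779 genes tested 95 were higher (0.971%) and 27 lower (0.276%) in the Lama5 KO, by the quasi-likelihood F test of edgeR on counts summed per library with Benjamini-Hochberg adjusted p under 0.05. Only 17 of these 122 changed by 1 or more on the log2 scale. Leaving out 1 library leaves 1 in its group, which is then assumed to vary like the other group, and the count moved: it was 40 and 42 without the first and second KO library, 315 without the first and 121 without the second WT library. DESeq2 called 107 genes, 87 of them shared. The edgeR count was 37 in cells with 4 or more of the selection genes, and 13 without cells that held over 2 times the median UMIs of endothelial cells or 2 or more markers of another class. Both libraries of a group came from 1 pool, so these p-values compare pools.

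Both alpha chains moved, in opposite directions. Lama5 fell from 75.1 and 69.0 to 45.6 and 40.6 CPM (edgeR adjusted p = 0.0260, log2 fold change -0.68 with SE 0.14). Lama4 rose from 35.1 and 40.0 to 60.0 and 54.7 CPM (0.68, SE 0.14, edgeR adjusted p = 0.0315). Neither pair of groups overlapped. Without the first and the second KO library neither chain passed: Lama5 had log2 fold changes of -0.75 and -0.60 (edgeR adjusted p of 0.117 and 0.249). Lama4 had 0.63 and 0.74 (edgeR adjusted p of 0.176 and 0.110), and 0.59 without the first WT library (0.0693). In cells with 4 or more of the selection genes, the fold changes were -0.60 for Lama5 and 0.66 for Lama4 (edgeR adjusted p of 0.338 and 0.304). Without cells holding 2 or more markers of another class they were -0.54 and 0.80 (0.0971 and 0.0318). Among cells of 5000 UMIs or more they were -0.67 and 0.75 (0.0535 and 0.0286), and without cells over the doublet limits Lama5 had -0.98 (0.538). Lama3, Lamb2 and Lamc1 had log2 fold changes of -0.05, -0.15 and -0.03 and did not pass. No gene of the other basement membrane list (13 tested), the receptor list (14), the Notch list (15) or the TGF-beta and BMP list (24) was called. Nor was any of the 29 barrier genes or the 23 core endothelial genes. Over all genes tested 0.971% were called higher and 0.276% lower, so lists of these sizes could lack a call without differing from that share.

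Mt1, a metal-binding metallothionein, rose more than the other genes named by size here. It stood at 97.5 and 91.0 CPM in WT cells and at 286 and 285 CPM in KO cells (edgeR adjusted p = 1.25e-07, log2 fold change 1.66, SE 0.08). Its log2 fold change was 2.51 without cells over either doublet limit and 2.29 without cells holding 2 or more markers of another class. The WT libraries of the Lama4 experiment, 2 samples of 1 pool, stood at 167 and 86.4 CPM. Mt2, its neighbour on chromosome 8, stood at 29.5 and 22.4 against 27.6 and 20.03 CPM (-0.08, SE 0.22, edgeR adjusted p = 0.941). Their promoters, 250 bases upstream of the start on the plus strand from RefSeq (GRCm38.p6), are printed because the genes lie side by side and only Mt1 was called. The windows are chr8:94178839-94179088 for Mt1 and chr8:94172368-94172617 for Mt2. Capitals mark the metal response element core, searched as TGCACNC and TGCGCNC on both strands and present in 21.4% of all promoters of this length.
Mt1: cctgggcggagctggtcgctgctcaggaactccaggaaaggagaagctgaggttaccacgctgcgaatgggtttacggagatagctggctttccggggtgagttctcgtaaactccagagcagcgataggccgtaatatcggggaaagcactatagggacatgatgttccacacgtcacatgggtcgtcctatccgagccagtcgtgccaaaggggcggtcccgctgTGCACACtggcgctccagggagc
Mt2: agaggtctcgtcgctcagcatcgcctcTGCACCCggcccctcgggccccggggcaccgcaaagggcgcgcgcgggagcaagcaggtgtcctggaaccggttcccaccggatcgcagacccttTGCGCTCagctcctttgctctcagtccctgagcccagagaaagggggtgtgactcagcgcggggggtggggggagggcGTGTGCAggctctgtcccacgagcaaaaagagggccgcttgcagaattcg

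Within these windows Mt1 held 1 match and Mt2 held 3. The windows do not sit alike on the genes. That of Mt1 ends past the annotated gene start (94179082), and that of Mt2 ends short of it (94172664). Bases nearer to or past the start were not searched, so the counts do not rank one promoter over the other. Matches of this kind are letters only.

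Other genes named as higher were H2-Q7, Tnfrsf12a, Pim1, Myof, Gkn3, Gadd45b, Map2k3 and Tiparp. H2-Q7, a class I histocompatibility gene with close relatives among which reads can be misassigned, went from 55.7 and 48.8 to 109 and 109 CPM (edgeR adjusted p = 1.88e-04, log2 fold change 1.12 with SE 0.12). In the WT of the Lama4 experiment H2-Q7 stood at 120.6 and 118.8 CPM, above the KO levels. Tnfrsf12a, the receptor of the cytokine TWEAK, went from 126 and 123 to 234 and 217 CPM (0.92, SE 0.09, edgeR adjusted p = 5.33e-05). Gkn3, the leading arterial gene, went from 1548 and 1458 to 2040 and 2112 CPM (0.53, SE 0.05, edgeR adjusted p = 5.33e-05). Cells with 4 or more of the selection genes, which hold more Gkn3, were 41.5% and 44.0% of members in the WT libraries and 48.5% and 50.8% in the KO. Among those cells alone the log2 fold change of Gkn3 was 0.57. It was 0.09 once cells over either doublet limit were left out, which removed 1200 of the 1586 members. Gadd45b, a stress gene, went from 566 and 539 to 740 and 780 CPM. In each of these genes and in Mt1, both KO libraries stood above both WT libraries, which was a condition for naming them.

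Vessel tone genes contributed 3 of the calls among 20 tested, all higher. Edn1 rose from 555 and 651 to 778 and 819 CPM (log2 fold change 0.47, edgeR adjusted p = 0.00476). Ptgs2, a prostaglandin synthase, rose from 36.6 and 50.1 to 105 and 84.5 CPM (1.20, edgeR adjusted p = 0.00185). Gja4 rose from 172 and 169 to 213 and 211 CPM (0.38, edgeR adjusted p = 0.0315). With Gkn3, Edn1 and Gja4 made up the 3 calls among 27 arterial genes. Of 16 flow-response genes, Adamts1, a matrix protease, was called, going from 1647 and 1494 to 2006 and 1905 CPM (0.38). Klf2, the best known flow-induced factor, stood at 5096 and 4679 against 3887 and 4193 CPM and missed the threshold (-0.21, edgeR adjusted p = 0.0539). Of 14 capillary genes, the chemokine Cxcl12 was called, from 597 and 540 to 447 and 389 CPM (-0.38). Among venous genes Slc38a5 was called (1.59, edgeR adjusted p = 0.0391) and remained low, at 6.72 and 9.23 CPM in the WT libraries against 30.6 and 15.7 CPM.

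A group singled out after its values were seen was that of the cytosolic ribosomal proteins. Of 83 tested, 37 were called higher and none lower, against 0.971% of all genes higher, with log2 fold changes of 0.20 to 0.60. The median log2 fold change of those tested was 0.22 in large-artery cells and 0.16 in the other endothelial cells. Together these genes took 8.80% and 8.80% of WT UMIs of large-artery cells, against 9.83% and 9.74% of KO UMIs. They took 9.66% and 9.34% in the WT of the Lama4 experiment, just below the KO values.

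The 10 genes named as lower were Hspa1b, Nov, 8430408G22Rik, Gm26802, Hspa1a, B4galt4, Synm, Btg2, Ddx3y and Zbtb16. Hspa1b and Hspa1a are near-identical inducible heat shock genes between which reads can be split. Hspa1b fell from 410 and 358 to 214 and 187 CPM (edgeR adjusted p = 1.26e-04, log2 fold change -0.88 with SE 0.09). It stood at 2612 and 2743 CPM in the WT of the Lama4 experiment, far more than the KO difference. Of the 18 dissociation and immediate early genes, 4 were called lower (Hspa1a, Hspa1b, Btg2 and Fos) and 1 higher (Ier3). Whether handling differed between the pools was not tested. Nov, a secreted matricellular protein, fell from 145 and 151 to 81.6 and 73.1 CPM (-0.87, SE 0.10, edgeR adjusted p = 5.20e-04). Without cells holding 2 or more markers of another class, a choice added after seeing the data, its log2 fold change was -0.28 and was not called (edgeR adjusted p = 0.427). Ddx3y, a Y-linked helicase, fell from 138 and 131 to 90.6 and 89.3 CPM. The other Y-linked genes, given as a description, were lower in both KO libraries too: Eif2s3y at 34.7 and 28.1 against 15.6 and 18.4 CPM, Kdm5d at 11.2 and 13.2 against 6.60 and 3.25 CPM, and Uty at 16.1 and 19.8 against 9.0 and 15.7 CPM. Xist was at 0 to 0.619 CPM in all 7 libraries.

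The rule's genes are described without a test. Mgp stood at 4221 and 3953 CPM in WT and 5409 and 5746 CPM in Lama5 KO members, and Fbln5 at 282 and 245 against 317 and 375 CPM. Cytl1 stood at 56.04 and 57.6 against 87.0 and 70.9 CPM, and Eln at 224 and 224 against 217 and 244 CPM. Fbln2 stood at 321.6 and 308.4 against 330 and 327 CPM, and Pi16 at 47.82 and 53.16 against 53.39 and 63.88 CPM. The KO libraries thus lay above the WT for Mgp, Fbln5, Cytl1, Fbln2 and Pi16, and on both sides of it for Eln. Members with 4 or more of the selection genes were 41.5% and 44% in the WT libraries and 48.5% and 50.8% in the KO. The part of this share in the higher levels was not tested.

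**Figure D4:**
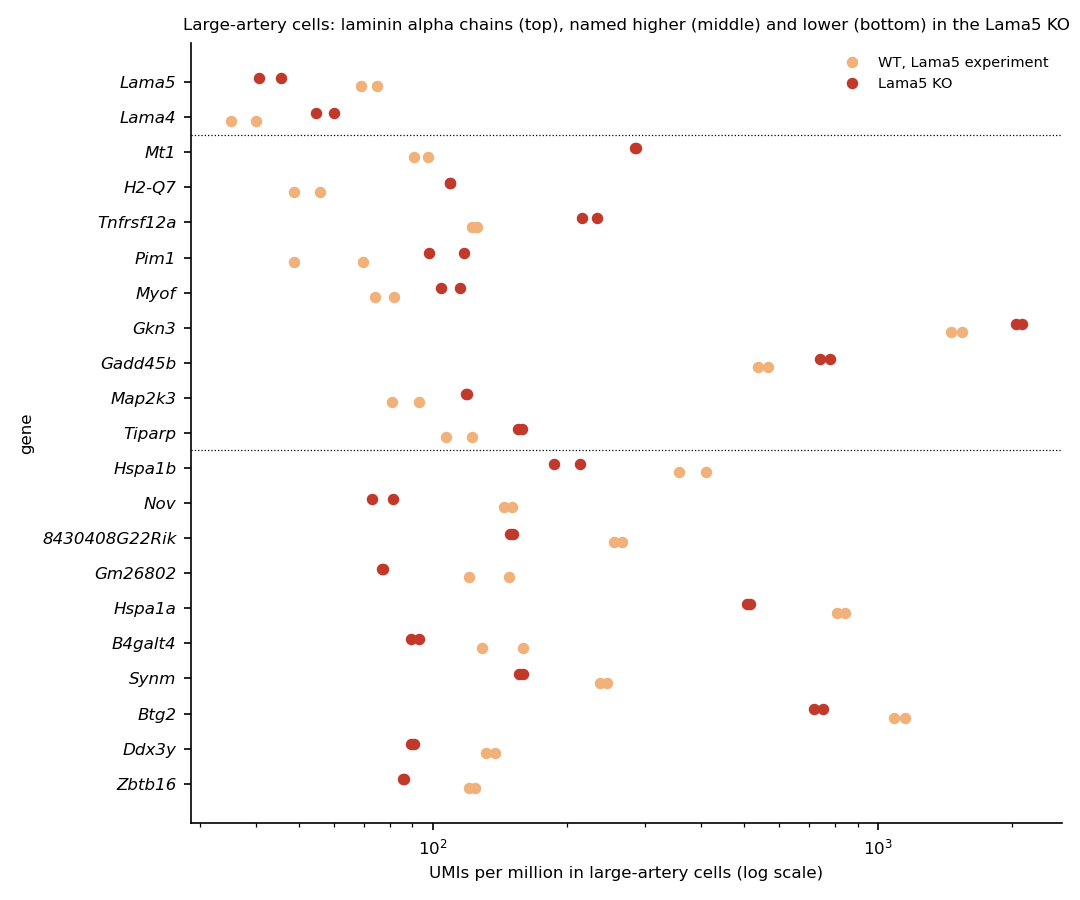
Level (CPM, log scale) in the large-artery cells of the 2 WT and 2 KO libraries of the Lama5 experiment, 1 point per library, for both laminin alpha chains and 19 named genes. Mt1 moves from 91.0 and 97.5 to 285 and 286 CPM. In every gene drawn the KO points lie on 1 side of the WT points, which was a condition for naming the 19 genes.

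Calls of red cell, choroid plexus and ribosomal RNA genes are named apart. The hemoglobin genes were lower in the KO. Hbb-bs stood at 1141 and 2430 CPM in the WT libraries, fell to 52.8 and 14.1 CPM, and stood at 738 and 41.5 CPM in 2 libraries of the other WT pool. Ttr was at 0.374 and 0 CPM in the WT libraries, against 33.6 and 77.4 CPM in those of the KO. Gm42418, a gene model that overlaps ribosomal RNA, went from 25010 and 25180 to 41670 and 44660 CPM. The Lama4 experiment's libraries held 6808 to 7413 CPM of it.

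The next test asked whether the Lama5 KO difference in large-artery cells was another one than in the rest of the endothelium, as the difference between their fold change and that of the other endothelial cells of the same libraries. Of 9779 genes, 7 (0.0716%) passed at edgeR adjusted p under 0.05, and 463 had an unadjusted p under 0.05. They were Mt1, Vcam1, Meg3, Hbb-bs, Hba-a1, Hba-a2 and Gm42418. The count was 0 without the second and 4 without the first KO library, and 178 and 71 without the first and second WT library.

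Mt1 differed by 1.32 (SE 0.08, edgeR adjusted p = 7.16e-05). In the other endothelial cells it stood far higher and moved less, from 665 and 677 to 819 and 788 CPM (log2 fold change 0.34). Without the second KO library this difference was 1.31 with an edgeR adjusted p of 0.0639. Vcam1 differed by -0.59 (SE 0.08, edgeR adjusted p = 0.0241). It went from 115 and 122 to 208 and 202 CPM in the other endothelial cells (0.87). In large-artery cells it went from 389 and 403 to 451 and 470 CPM (0.28, edgeR adjusted p = 0.0539). The level in large-artery cells stayed above that of the others in both genotypes, with a smaller gap in the KO. Without the first and the second KO library this difference was -0.53 and -0.63 with an edgeR adjusted p of 1 and 0.929, and without cells over the doublet limits it was -0.58 (0.667). For Lama5 and Lama4 the differences between the populations were 0.08 and -0.06, and for Gkn3 -0.15, and none passed (edgeR adjusted p of 0.991, 0.991 and 0.964). Of the 122 genes called in large-artery cells, 120 changed in the same direction in the other endothelial cells. The same share over all genes tested was not computed, and both populations came from the same libraries. The count thus has no background to be read against.

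**Figure D5:**
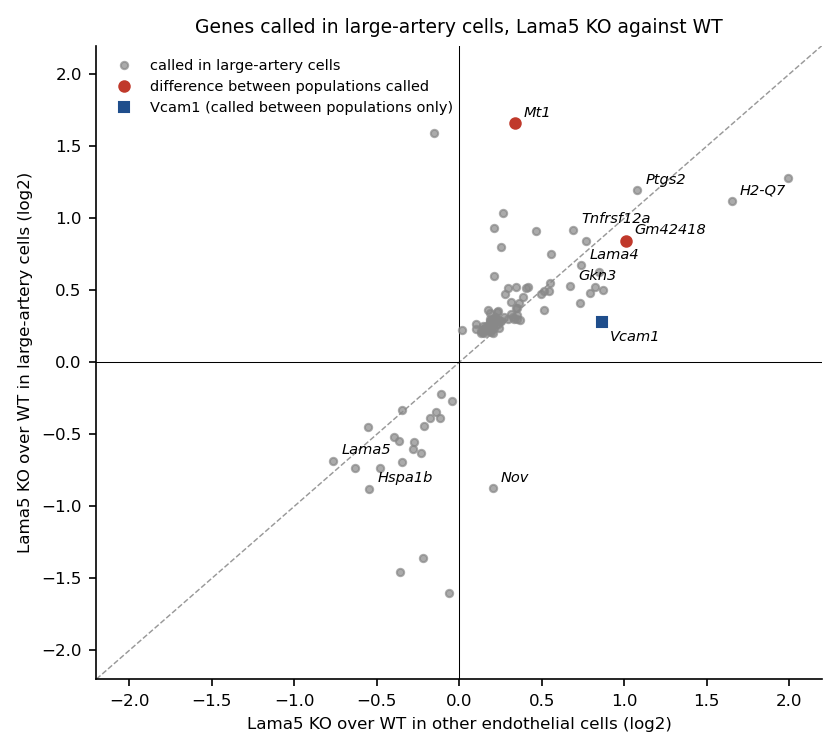
Log2 fold change of the Lama5 KO against its WT in large-artery cells (vertical axis) and in the other endothelial cells of the same libraries (horizontal axis) for 114 of the 122 genes called in large-artery cells, 1 point per gene, plus Vcam1; the dashed line marks equal values. Another 8 genes fall outside the axes, among them the 4 hemoglobin genes and Ttr; Mt1 lies above the line at 1.66 against 0.34 and Vcam1 below it at 0.28 against 0.87.

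The Lama4 KO gave 1 library of 202 large-artery cells, so no test was made and the values are given with exact Poisson 95% intervals. Of 1920 genes at 100 CPM or more, 4 (0.208%) differed by 2-fold or more from each WT library with intervals that did not overlap, and all 4, Hbb-bt, Hba-a1, Hba-a2 and Ttr, belong to red cells or choroid plexus. The ratios of the 3 hemoglobin genes turned negative without cells over the doublet limits, and without cells holding 2 or more markers of another class (log2 -1.77 and -2.40 for Hba-a1, against 2.34 with all cells). Across those 1920 genes the log2 ratio of the KO to the WT had an SD of 0.24 for the first WT library and 0.30 for the second, and that of one WT library to the other 0.19.

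Without the criterion of size, the KO interval lay above both WT intervals for 98 of the 1920 genes (5.1%) and below both for 160 (8.33%). Of 24 arterial identity genes among the 1920, 11 lay above (Gja4, Gkn3, Dll4, Alpl, Unc5b, Nrp1, Stmn2, Clu, Edn1, Tm4sf1 and Tsc22d1) and 2 below (Crip1 and Azin1). Gja4 stood at 331 CPM (310 to 353) in the KO against 165 and 176 CPM in the WT. Gkn3 stood at 2910 CPM (2846 to 2974) against 1810 and 2014 CPM. Tgfb2, a growth factor, stood at 364 CPM (342 to 387) against 220 and 211 CPM, and Dll4 at 219 CPM (202 to 238) against 142 and 156 CPM. Edn1 stood at 754 CPM (722 to 788) against 644 and 648 CPM. Lama3, at a lower level, stood at 77.4 CPM (67.3 to 88.5) against 44.2 and 56.8 CPM. Lama5 stood at 125 CPM (112 to 139) against 112 and 98.6 CPM, and its interval overlapped that of the first WT library (101 to 125). Of the rule's genes, Mgp stood at 7917 CPM against 6048 and 6207 CPM. Cytl1 stood at 275.5 CPM (256.2 to 295.9) against 207 and 214 CPM, above both WT intervals. Fbln2 stood at 253 CPM (234.4 to 272.5) against 288 and 277 CPM, lower than both WT levels with intervals that overlapped. Pi16 stood at 109.9 CPM (97.79 to 123) against 108.6 and 98.94 CPM. Fbln5 at 450 against 433 and 465 CPM, and Eln at 384 against 361 and 393 CPM, lay within the WT pair.

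Among the genes below both WT intervals were 9 of 18 dissociation and immediate early genes, with 1 above (Dusp1). The early response gene Ier3 stood at 243 CPM (225 to 263) against 613 and 425 CPM, and Atf3, a stress-induced factor, at 422 CPM (398 to 447) against 675 and 590 CPM. Nov stood at 89.4 CPM (78.6 to 101) against 177 and 129 CPM, and Zbtb16, at a lower level, at 46.0 CPM (38.3 to 54.8) against 78.0 and 86.4 CPM. Mt1 stood at 83.2 CPM (72.8 to 94.7) against 167 and 86.4 CPM, an interval that includes the lower WT value. With 1 KO library, none of these differences has a replicate behind it.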

How the data were processed

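Gene counts per cell were deposited as 10x matrices of whole UMIs. Per the submitters' processing notes they came from Cell Ranger and mm10, and the notes also name Seurat. The matrix headers give software version 3.1.0, and the annotation release is not given in the sources used here. Of the 8 samples, 7 held distinct matrices. Cells were selected by the rule stated at the start of the report, and a gene counted as detected with 1 UMI. Counts were summed per library over the large-artery cells, the other gated endothelial cells and the small-artery cells. CPM were taken on those sums, and log2 ratios within a library add 5 CPM to each level.

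The Lama5 KO was compared with its WT in edgeR 4.0.16 (filterByExpr, TMM, quasi-likelihood F test, Benjamini-Hochberg over all genes tested, R 4.3.3). A second fit took both populations, with the library as a term and genotype by population as the tested term. Both were tested on simulated data. The 16 genes of the rule entered the fits and are reported without a test. DESeq2 1.42.0 served as an alternative, as did other filters, a rule of 4 genes and leaving out each library. Limits on fibroblast UMIs and on doublets were also tried, since no doublet caller was run. Cells with 2 or more markers of another class, and cells under 5000 UMIs, were left out in alternatives chosen after seeing the data.

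Named genes were the 6 selection genes, Lama4, Lama5 and, against the other endothelial cells, the 20 highest and 10 lowest by the least extreme library ratio among genes at 100 CPM or more. For the Lama5 KO they were up to 10 called genes each way with separated groups at 100 CPM or more, with red cell, choroid plexus and ribosomal RNA genes set apart. Up to 4 genes of each of 15 lists were added, called ones first. A gene under this rule is not reported here. Genes named outside this rule, among them Cdh5, Mt2, the Y-linked genes and the ribosomal proteins, were chosen after their values were seen. The members and the lists were chosen with earlier results of these data known. Promoters came from RefSeq, GRCm38.p6. For pairing, libraries of 1 number correlated at 0.241 in their deviations over 3433 genes, with 2 pairs only, and were not treated as paired. Values were tabulated with Python 3.11.15, pandas 2.3.3 and scipy 1.17.1.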

Additional observations from a re-analysis of the deposited data

Results flagged for a closer look

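For 7 genes the Lama5 KO difference (log2) itself differed between large-artery and other endothelial cells by the test of that difference in edgeR. Large-artery minus other endothelial cells, it was 1.32 for Mt1 and -0.59 for Vcam1. It was -5.27 for Hbb-bs, -5.23 for Hba-a1 and -5.26 for Hba-a2, whose reads can be split between near-identical copies. It was 3.61 for Meg3, a long noncoding RNA of neurons that stood at 1.49 and 0.439 CPM in the WT and 23.4 and 7.58 CPM in the KO members. It was -0.17 for Gm42418.

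Among the genes named for the Lama5 KO, 6 stood on the opposite side of the WT in the Lama4 KO. The difference between the knockouts was not tested, and only for Gadd45b and 8430408G22Rik did the Lama4 KO level lie outside the counting intervals of both WT libraries. The Lama4 KO log2 ratio in large-artery cells was -0.58 for Mt1, -0.52 for Gadd45b and -0.31 for Tiparp, all higher in the Lama5 KO. It was 0.17 for 8430408G22Rik, 0.36 for Gm26802 and 0.12 for Synm, all lower in the Lama5 KO.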

How the results depend on the processing

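The count of genes called in the Lama5 KO was 122. It became 37 with 4 or more selection genes, 319 with no filter on low counts and 13 without cells over the doublet limits, and leaving out 1 library gave 40 to 315. With the replicate number as a block it was 327, and the numbers are not known to pair the libraries. The count for the difference between populations was 7. It became 46 with no filter, 1 without cells over the doublet limits and 17 without cells holding 2 or more markers of another class, and 0 to 178 without 1 library. It could take no replicate block, since the library is already a term. The share of large-artery cells, Lama5 KO minus WT, moved from -0.643 to 0.0364 points with 4 or more genes, 0.154 with thinning and 0.209 among cells of 5000 UMIs or more, where the Lama4 difference of -0.329 became 1.88. Signs turned for Gm42418 between populations (0.13 without cells over the doublet limits) and for hemoglobin genes in the Lama4 KO. Without cells over the doublet limits, and without those holding 2 or more markers of another class, the log2 ratios were -1.14 and -1.51 for Hbb-bt, -1.77 and -2.40 for Hba-a1, and -1.69 and -1.60 for Hba-a2. The cause was not tested. Of the named Lama5 KO fold changes under other settings, 174 kept the call, 34 lost it and none turned. Fits that left out a library are not in this tally. The DESeq2 test entered it with 11 of the 22 named genes, without Lama4, Lama5 or Nov. Lama4 also had no entry without cells over the doublet limits. The limit on fibroblast UMIs gave 22 of the 174, but it removed no member and so could change none. Without cells over the doublet limits, 4 kept the call and 17 lost it. The large-artery sums of 1666881 to 3274845 UMIs limit what low genes can show.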
